A study of Mus musculus with 12 samples.

Results

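Transcripts of the collagen chains were described in RNA from isolated mouse cardiomyocytes. A gene was taken as a collagen chain when its symbol in the deposited count table was Col, a number, the letter a and a number, which gave 43 of 22584 genes. By the collagen that each chain builds, 11 were fibrillar, 6 were type IV chains of basement membranes and 26 belonged to other classes. The mice carried the label C57BL6 with a wild-type (WT) genotype, and no transgene is named. The sham saline group had a sham operation and saline injections, and the sham JV001 group had a sham operation and injections of JV001. In the CKD saline and CKD JV001 groups, AngII (angiotensin II) was combined with a high salt diet and uninephrectomy (removal of 1 kidney), the model that the series calls CKD, and saline or JV001 was injected. JV001 is known here by its code name only, and the labels give no dose, age or sex. A duration of 12 weeks is given for every group but CKD saline, which has none. Each group had 3 libraries. Whether these came from separate animals is not stated, so a p-value sets a difference against the spread of these libraries alone, which may be technical.

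Collagens are secreted proteins made of chains that wind around each other in a triple helix. Type I, III and V chains assemble into the fibres that carry load in the heart wall, and fibroblasts are their main source there. Type IV chains form the sheet-like network of basement membranes, which surround cardiomyocytes, capillaries and smooth muscle, and endothelial cells make much of it. The other classes include the beaded filaments of type VI, the hexagonal network of type VIII, the types that coat fibrils (XII, XIV and XVI), and types XV and XVIII of the basement membrane zone.

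Depth ran from 25.2 to 37 per library (unit 1e6 counts), and collagen chains took 0.0548 to 0.327% of them. All 10 ventricular cardiomyocyte markers were detected in every library, with a summed level of 22881 to 93809 CPM (counts per 1e6 counts, scaled by TMM factors). All 10 fibroblast markers and all 10 endothelial markers were also detected in every library, at 273 to 3600.1 and 475 to 3386 CPM summed, so the preparations were not free of RNA of these types. In bulk RNA, fewer cells of a type and less RNA per cell cannot be told apart. Some libraries stood apart from others of their group. In a chi-square comparison of counts, which gives about 1 per gene for counting noise alone, CKD saline 1 and 2 gave 8.02 per gene, whereas CKD saline 3 gave 182 and 179 against them. CKD JV001 3 gave 285 and 329 against CKD JV001 1 and 2, which gave 21.8 against each other. Sham saline 1 gave 235 and 208 against sham saline 2 and 3, which gave 26.5. No library pair fell within counting noise, and all 12 libraries were kept, and counts, medians and the chains that moved most are also given without these libraries.

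Compared per transcript length on the deposited FPKM scale, the basement membrane chains led. Col4a1 and Col4a2, the chains of the common form of type IV collagen, had means of 61 and 50.8 FPKM over the 12 libraries. Next came Col1a2 at 16.4, Col3a1 at 15.9, Col6a1 at 13.2, Col15a1 at 10.9, Col1a1 at 8.91 and Col6a2 at 7.68 FPKM. The order of Col1a2 and Col3a1 was not the same in all groups: Col3a1 exceeded Col1a2 in all 6 sham libraries, with group means of 12.9 and 8.14 FPKM in sham saline, and Col1a2 exceeded Col3a1 in all 6 CKD libraries, with 34.8 and 28.8 in CKD JV001. Over the 12 libraries Col1a2 ran from 3.94 to 43.8 and Col3a1 from 4.08 to 33.4 FPKM. The 6 type IV chains held 61.2 ± 8.81% of all collagen FPKM in sham saline (SD, n = 3), 59.2 ± 7.22% with JV001 after sham, 61.5 ± 5.54% in CKD saline, and 49.8 ± 5.32% in CKD JV001. At the other end, 9 chains had at most 20 reads in any library and were not tested: Col2a1, Col6a4, Col9a1, Col9a2, Col11a1, Col17a1, Col19a1, Col24a1 and Col26a1. Several of these build cartilage or epithelial collagens. The other 34 chains (8 fibrillar, 6 type IV and 20 other) passed the filter on low counts, 31 of them already in at least 3 sham libraries. Col8a2, Col9a3 and Col25a1 did not, and passed only with CKD libraries counted. A higher level of these chains in the CKD groups is therefore partly a product of the filter.

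**Figure D1:**
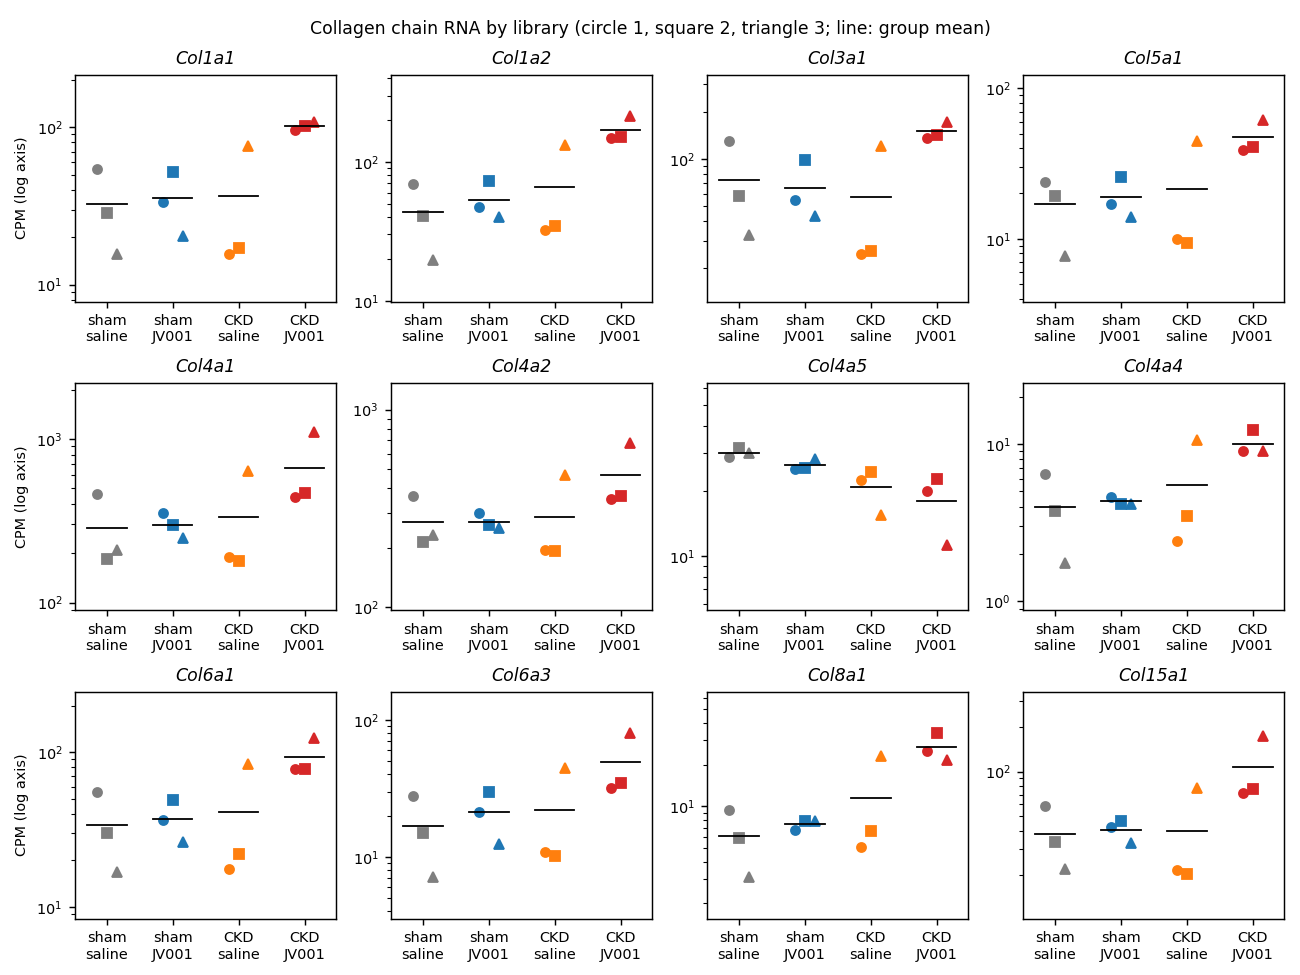
CPM of 12 collagen chains (y axes, log scale) in the 4 groups (x axis), with 1 point per library, its shape giving the library number, and a line at the group mean. In CKD JV001, Col1a1 sits between 95.8 and 108 CPM, above the 9 other libraries, and CKD saline 3 lies far above CKD saline 1 and 2.

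The comparison of CKD saline with sham saline asks what the CKD model does to these transcripts without JV001. Means were close and spreads wide for the main fibre chains: Col1a1 stood at 36.4 ± 34.6 CPM in CKD saline against 32.7 ± 19.5 in sham saline (SD, n = 3 each), and Col3a1 at 57 ± 55.4 against 73.5 ± 50.9. With edgeR's quasi-likelihood test, adjusted over 15004 genes at a threshold of 0.05, 0 of 34 chains passed, and the background was 0% of all genes. At an unadjusted p under 0.05 there was 1 chain, Col9a3, against 4.95% of all genes, and DESeq2 called 0 chains and 54 genes (0.364%). The median log2 fold change of the chains was 0.26, beside 0.01 for all genes tested, and 26 of 34 lay above 0, against 51.4% of all genes. This direction rested on CKD saline 3: without it the chain median was -0.43, with 11 of 36 chains above 0, and without sham saline 1 it was 0.70. The share of all genes above 0 without these libraries is not given here. Groups did not overlap for 1 higher chain (Col9a3) and 1 lower chain (Col4a5), against 4.12 and 6.43% of all genes. Col9a3, which passed the filter only with CKD libraries counted, had 0 reads in each sham saline library and 1, 6 and 22 in CKD saline. The 1 read of CKD saline 1 lies within the 3 counts that a count of 0 allows.

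CKD JV001 against CKD saline asks what JV001 does within the model. Group means were higher in CKD JV001: that of Col1a1 was 102 ± 6.08 CPM against 36.4 ± 34.6, that of Col15a1 108 ± 57.6 against 40 ± 32.9, and that of Col14a1 22.5 ± 3.6 against 7.46 ± 5.28 (SD, n = 3). In edgeR's test 0 of 34 chains passed (background 0%), with a smallest adjusted p of 0.276. At an unadjusted p under 0.05 there were 11 chains, all higher, against 9.29% of all genes in that direction, and DESeq2 called 1 chain, Col13a1, against 0.452% of genes. The chain median was 1.18, beside 0.02 for all genes, with 32 of 34 above 0, against 51.4% of genes. By class the median was 1.27 for fibrillar, 0.79 for type IV and 1.22 for other chains. The 3 CKD JV001 libraries lay above all 3 CKD saline libraries in 12 of 34 chains (5 fibrillar, 1 type IV and 6 other), 35.3% against a background of 8.21%, and below them in 0, against 6.04%. Over the 26 chains with a mean of at least 1 CPM the count was 10, against 7.36% of such genes, and over all 43 chains 13, against 6.64% of all genes with a read.

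The outcome of this comparison depended on CKD saline 3. Without that library, 22 of 36 chains passed at adjusted p under 0.05 (7 fibrillar, 4 type IV and 11 other), all of them higher, and 21.3% of all genes passed. The chain median was then 2.18, and the groups did not overlap for 29 of the 34 chains, against 33.1% of genes. Without library 3 of both CKD groups, 17 of 36 chains (6 fibrillar, 4 type IV and 7 other) and 19.9% of genes passed, with a median of 1.82. Without CKD JV001 3 alone, 0 chains passed (background 0%) and the median was 0.91. CKD saline 1 and 2 were the most alike pair of the 12 pairs within groups, at 4.67 per chain in the chi-square comparison, whereas CKD saline 3 gave 686 and 751 against them.

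The call also depended on how same-numbered libraries were treated. In these 2 groups, and in no other compared pair of groups, all 3 same-numbered libraries deviated from their group means together. The labels do not say that a number marks shared animals or days, and library 3 stood apart in both groups. Deviations from a group mean sum to 0, so such a library 3 also makes libraries 1 and 2 deviate together. The 3 pairs are therefore not separate evidence that numbers pair the libraries, and the fit with a block below shares this limit. CKD JV001 was above CKD saline in all 3 pairs for 25 of 34 chains, against 27.7% of genes. It was below CKD saline in all 3 pairs for 2 chains (Col4a5 and Col22a1), against 30.0% of genes. A fit of the 2 CKD groups with the replicate number as a block, chosen after seeing the data, called 14 chains, all higher (5 fibrillar, 2 type IV and 7 other), against 19.9% of genes, with a median of 1.53 and 2 residual degrees of freedom. The same fit without the block called 0 chains and 0% of genes. The blocked log2 fold changes were 1.92 ± 0.45 (adjusted p = 0.0407) for Col1a1 and 1.68 ± 0.31 (adjusted p = 0.0239) for Col1a2. For Col3a1 it was 1.84 ± 0.41 (adjusted p = 0.0373), for Col4a1 1.14 ± 0.12 (adjusted p = 0.0113) and for Col15a1 1.61 ± 0.16 (adjusted p = 0.0113). The other chains called were Col4a2 at 0.78, Col5a1 at 1.52, Col6a1 at 1.52, Col6a2 at 1.60, Col6a3 at 1.40 and Col6a6 at 1.61. Col14a1 at 1.80, Col16a1 at 1.58 and Col27a1 at 1.90 were also called. Adjusted p of the chains in this list ran from 0.0121 to 0.0347 in edgeR's test.

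In the sham-operated mice, JV001 against saline gave 0 of 34 chains past the edgeR threshold (background 0%). Unadjusted, 2 chains, Col11a2 and Col9a3, had p under 0.05 and a higher level, against 1.61% of all genes, and DESeq2 called 0 chains and 3 genes (0.0202%). Without overlap, 3 chains lay higher (Col9a3, Col11a2 and Col13a1) and 1 lower (Col4a5), against 5.70 and 6.70% of genes. Without sham saline 1 these counts were 13 and 1, against 21.1 and 19.7%. The median of the chains was 0.12, beside -0.01 for all genes. It was 0.65 without sham saline 1. Col11a2, a chain of the minor fibrils of cartilage, read 2.31, 1.48 and 1.35 CPM for sham saline libraries 1, 2 and 3, 4.27, 4.85 and 3.63 for sham JV001, 1.74, 1.95 and 3.1 for CKD saline and 1.2, 2.25 and 4.37 for CKD JV001. The sham JV001 libraries lay above all sham saline libraries, with a log2 fold change of 1.31 ± 0.45 (adjusted p = 1.000).

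CKD JV001 against sham JV001 compares the model with its control under JV001, and 25 of 34 chains lay higher in all 3 CKD JV001 libraries than in any sham JV001 library (7 fibrillar, 4 type IV and 14 other). That is 73.5% of the chains, against a background of 22.9%. Only Col4a5 among the tested chains lay lower without overlap, against 20.1% of genes. The chain median was 1.23, beside 0.02 for all genes. In edgeR's test 0 chains passed, against 3 genes or 0.0200% of all genes. The smallest adjusted p was 0.0937, of Col8a2, which passed the filter only with CKD libraries counted. Unadjusted, 15 chains were higher and 1 lower at p under 0.05, against 14.8 and 12.7% of genes. A fit of these 2 groups alone called 9 chains, all higher, and 5.51% of genes. DESeq2 called 6 chains (Col1a2, Col8a1, Col8a2, Col12a1, Col14a1 and Col16a1), all higher, and 14.2% of genes. Without library 3 of both CKD groups, 25 of 34 chains again lay higher, against 29.7% of genes, and 4 of 36 passed edgeR's test (Col1a2, Col8a1, Col8a2 and Col16a1), against 9.38% of genes.

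Whether JV001 acted differently in CKD and sham mice was tested as an interaction. In edgeR's test 0 of 34 chains passed (background 0%), 1 chain, Col4a6, had an unadjusted p under 0.05 against 2.09% of genes in that direction, and DESeq2 called 0 chains and 2 genes (0.0135%). The chain median of the interaction was 0.92, and it was 0.51 without sham saline 1. These comparisons share samples in pairs (CKD saline enters the first and the second, for example), so their values are not independent of each other.

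**Figure D2:**
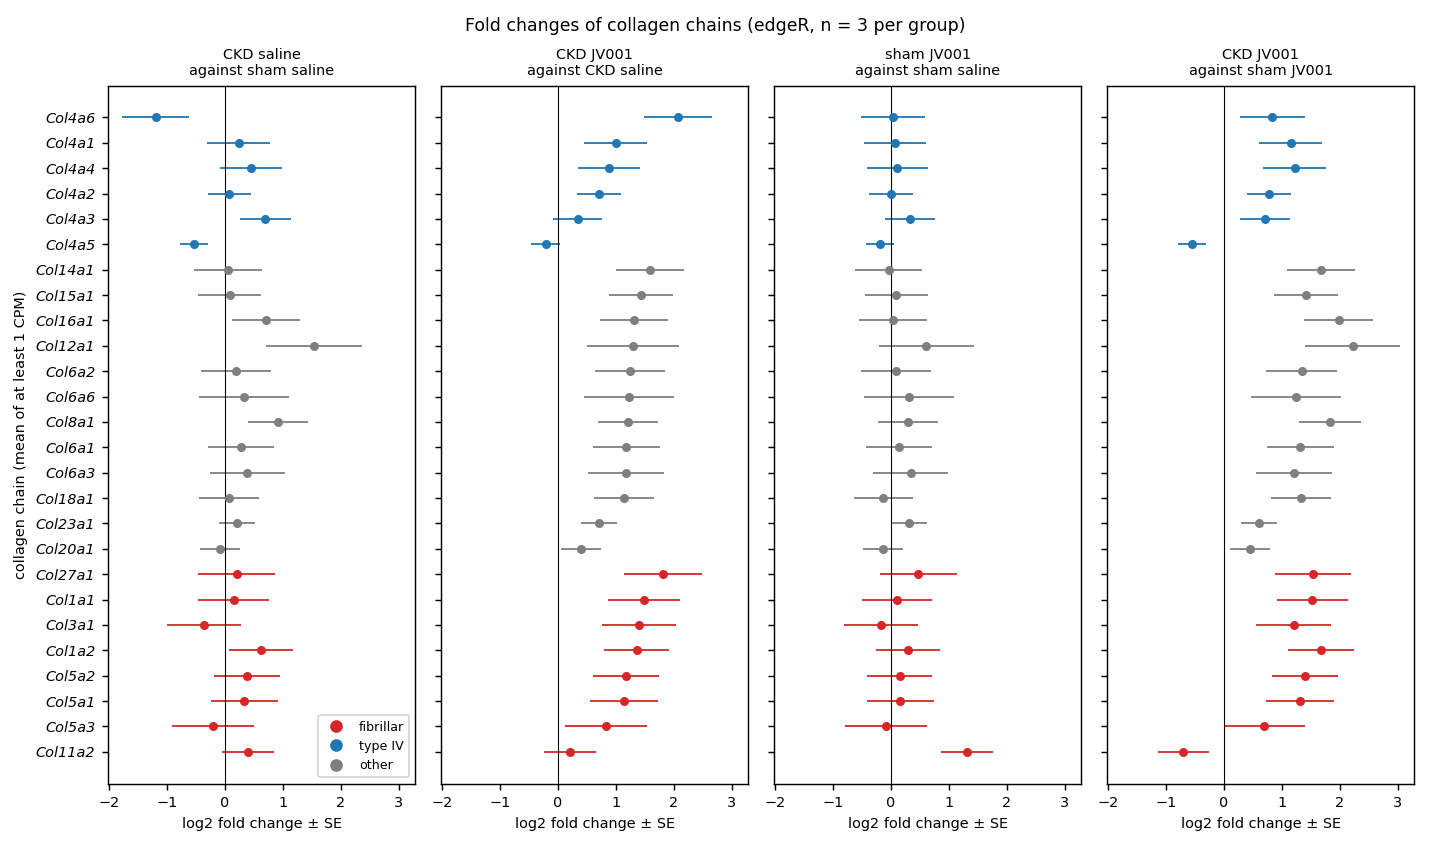
Log2 fold change ± SE (x axes) of the 26 chains with a mean of at least 1 CPM in the 4 comparisons of groups, coloured by class, n = 3 libraries per group. In CKD JV001 against CKD saline, Col4a5 alone lies below 0, at -0.21, and no chain passed the adjusted threshold of edgeR.

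Among the fibrillar chains, Col1a1 and Col1a2 together build type I collagen, the main fibre of the heart. Col1a1 read 54, 28.6 and 15.6 CPM for sham saline libraries 1, 2 and 3, 33.4, 52.2 and 20.2 for sham JV001, 15.6, 17.1 and 76.3 for CKD saline and 95.8, 102 and 108 for CKD JV001. All CKD JV001 libraries lay above every other library, CKD saline 3 was the next highest, and CKD saline 1 and 2 were among the lowest. Its log2 fold change in CKD JV001 against CKD saline was 1.49 ± 0.62 (adjusted p = 0.276), and 2.63 ± 0.51 (adjusted p = 0.0326) without CKD saline 3. Against sham JV001 it was 1.53 ± 0.62 (adjusted p = 0.153). The partner chain Col1a2 read 69.5, 40.8 and 19.7 for sham saline, 47.4, 72.4 and 40.2 for sham JV001, 32.3, 34.8 and 132 for CKD saline and 148, 150.0 and 213 for CKD JV001. Its pattern was the same, with CKD saline 3 just under the lowest CKD JV001 library. For Col1a2 the log2 fold change was 1.36 ± 0.56 (adjusted p = 0.276) in CKD JV001 against CKD saline and 1.67 ± 0.57 (adjusted p = 0.118) against sham JV001, where it became 1.47 ± 0.39 (adjusted p = 0.0439) with library 3 of both CKD groups left out.

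Col3a1, which forms the finer, more compliant type III fibres, read 130.4, 57.6 and 32.4 CPM for sham saline libraries 1, 2 and 3, 54.8, 98.2 and 43 for sham JV001, 24.5, 25.6 and 121 for CKD saline and 136, 142 and 173 for CKD JV001. Sham saline 1 and CKD saline 3 lay just under the CKD JV001 libraries, and the CKD saline libraries other than 3 were the lowest of all. Its log2 fold change was -0.37 ± 0.63 (adjusted p = 0.98) in CKD saline against sham saline and 1.40 ± 0.65 (adjusted p = 0.278) in CKD JV001 against CKD saline. Without CKD saline 3 these became -1.52 ± 0.52 (adjusted p = 1) and 2.58 ± 0.54 (adjusted p = 0.0326). Of the 8 fibrillar chains tested, Col3a1 and Col5a3 were those below 0 in CKD saline against sham saline with all libraries.

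Type V chains start and limit the diameter of type I fibrils. Col5a1 read 24, 19.1 and 7.64 for sham saline, 17, 25.7 and 14 for sham JV001, 10, 9.43 and 44.6 for CKD saline and 39, 40.6 and 61.7 for CKD JV001 CPM. In CKD JV001 it overlapped CKD saline through library 3 of the latter, and the log2 fold change was 1.14 ± 0.59 (adjusted p = 0.29). Col5a2 read 17.4, 9.97 and 5.78 for sham saline, 11.6, 17.7 and 7.51 for sham JV001, 5.85, 8.34 and 28.9 for CKD saline and 31.1, 30.4 and 36 for CKD JV001 CPM. Here all CKD JV001 libraries lay above CKD saline, with a log2 fold change of 1.18 ± 0.57 (adjusted p = 0.283), and of 1.41 ± 0.57 (adjusted p = 0.153) against sham JV001. Col5a3, the third type V chain, read 20, 9.15 and 3.63 for sham saline, 11.7, 13.3 and 5.85 for sham JV001, 3.92, 3.69 and 20.7 for CKD saline and 14, 14.3 and 21.8 for CKD JV001 CPM. Sham saline 1 and CKD saline 3 reached the CKD JV001 range. Col27a1, a fibrillar chain of cartilage picked after its values were seen, read 2.89, 1.7 and 1.11 for sham saline, 2.87, 3.2 and 1.82 for sham JV001, 1.78, 0.66 and 4.13 for CKD saline and 4.34, 4.24 and 14.3 for CKD JV001 CPM, and CKD JV001 3 alone stood far above the rest. Its log2 fold change was 1.81 ± 0.67 (adjusted p = 0.276) in CKD JV001 against CKD saline.

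Type IV genes lie in head-to-head pairs, and 4 start regions are shown because the neighbours Col4a1 and Col4a2 ranked the libraries in a similar order while the neighbours Col4a5 and Col4a6 did not. Such an order is not particular to neighbours: Col15a1, which is no neighbour of Col4a1, also had CKD JV001 3 highest and CKD saline 3 next. The neighbours Col4a3 and Col4a4 ranked the sham saline libraries in opposite order. Whether a shared start bears on the order was not tested. The sequences are RefSeq promoters, 250 bases before to 50 after the start, on build GRCm38.p6, whereas the counts were made on GRCm39. Of the 43 chains, 34 had an entry. In the first pair the capitals mark the 78 bases that both windows share, with starts 21 bases apart on opposite strands of chromosome 8. In the second pair, on chromosome X with starts 1343 bases apart, the windows share 0 bases, and the capitals mark the GC box GGGCGG, read on either strand.
Col4a1, chr8:11312777-11313076, minus strand: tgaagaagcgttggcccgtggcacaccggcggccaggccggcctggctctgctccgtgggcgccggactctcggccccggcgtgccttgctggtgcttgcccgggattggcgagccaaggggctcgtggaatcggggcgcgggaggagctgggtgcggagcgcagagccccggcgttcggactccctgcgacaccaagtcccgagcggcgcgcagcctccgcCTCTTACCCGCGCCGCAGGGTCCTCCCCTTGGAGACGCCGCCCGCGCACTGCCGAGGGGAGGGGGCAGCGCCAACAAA
Col4a2, chr8:11312555-11312854, plus strand: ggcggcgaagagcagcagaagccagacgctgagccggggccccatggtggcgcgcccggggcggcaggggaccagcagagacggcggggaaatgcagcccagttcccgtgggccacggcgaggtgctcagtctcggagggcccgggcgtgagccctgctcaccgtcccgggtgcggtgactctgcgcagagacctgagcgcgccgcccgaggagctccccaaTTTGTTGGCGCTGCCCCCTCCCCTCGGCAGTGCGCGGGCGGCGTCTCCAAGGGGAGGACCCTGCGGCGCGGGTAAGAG
Col4a5, chrX:141475169-141475468, plus strand: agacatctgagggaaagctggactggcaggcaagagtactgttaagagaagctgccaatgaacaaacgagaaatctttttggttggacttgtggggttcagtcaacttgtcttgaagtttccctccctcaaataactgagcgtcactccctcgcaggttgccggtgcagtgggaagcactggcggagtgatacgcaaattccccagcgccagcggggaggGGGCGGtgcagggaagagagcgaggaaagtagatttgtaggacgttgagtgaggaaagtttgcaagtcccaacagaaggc
Col4a6, chrX:141474027-141474326, minus strand: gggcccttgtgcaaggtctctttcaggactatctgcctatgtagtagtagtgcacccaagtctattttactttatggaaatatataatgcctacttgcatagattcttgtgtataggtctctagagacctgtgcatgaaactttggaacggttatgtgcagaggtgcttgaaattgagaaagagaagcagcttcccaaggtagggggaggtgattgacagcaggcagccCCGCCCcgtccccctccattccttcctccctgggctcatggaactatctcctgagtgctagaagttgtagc

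A search of both strands found GGGCGG 1 time in the Col4a1 window, 3 times in that of Col4a2 and 1 time each in those of Col4a5 and Col4a6. CCAAT occurred 1 time in each window except that of Col4a6, which had 0, and TATAAA in none of the 4. Over the 37 promoters of these 34 chains, 23 held GGGCGG, 13 CCAAT and 4 TATAAA, and the shares over all 32851 promoters of this length were 35.7, 37.4 and 13.6%. A match describes these letters only.

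Col4a1 read 458, 186 and 209 CPM for sham saline libraries 1, 2 and 3, 352, 298 and 249 for sham JV001, 189.9, 179.8 and 635 for CKD saline and 443, 464 and 1095 for CKD JV001. CKD JV001 3 was the highest library and CKD saline 3 the next, both above CKD JV001 1 and 2. Its log2 fold change in CKD JV001 against CKD saline was 0.99 ± 0.54 (adjusted p = 0.301), and 1.85 ± 0.48 (adjusted p = 0.0367) without CKD saline 3. Without library 3 of both CKD groups it was 1.27 ± 0.35 (adjusted p = 0.034), and against sham JV001 1.16 ± 0.54 (adjusted p = 0.192). Col4a2 read 365, 215 and 233 for sham saline, 299.6, 262 and 253 for sham JV001, 195, 194 and 469 for CKD saline and 352, 367 and 682 for CKD JV001 CPM. Its order of libraries was close to that of Col4a1 with a smaller range, 3.52-fold from lowest to highest against 6.09-fold. For Col4a2 the log2 fold change was 0.71 ± 0.38 (adjusted p = 0.294), and 1.26 ± 0.32 (adjusted p = 0.0363) without CKD saline 3.

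Col4a5, a chain of the X-linked type IV networks, was the exception among the abundant chains. It read 28.7, 31.6 and 30 CPM for sham saline libraries 1, 2 and 3, 25.3, 25.6 and 28.2 for sham JV001, 22.5, 24.4 and 15.5 for CKD saline and 20, 22.6 and 11.2 for CKD JV001. The highest values were in sham saline, and library 3 was the lowest of both CKD groups, the reverse of Col4a1. All sham JV001 and all CKD saline libraries lay below all sham saline libraries, and CKD JV001 lay below sham JV001 without overlap. Its log2 fold change was -0.53 ± 0.24 (adjusted p = 0.941) in CKD saline against sham saline, -0.21 ± 0.24 (adjusted p = 0.58) in CKD JV001 against CKD saline and -0.55 ± 0.24 (adjusted p = 0.174) in CKD JV001 against sham JV001. The range of Col4a5 over the 12 libraries was 2.82-fold.

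Col4a6, its head-to-head neighbour, was low, with 68, 34, 28, 51, 55, 26, 12, 8, 24 reads in the sham saline, sham JV001 and CKD saline libraries in turn, and 66, 114 and 64 in CKD JV001. CKD saline 1 and 2 were the lowest libraries, and all CKD JV001 libraries lay above CKD saline. The log2 fold change was -1.20 ± 0.58 (adjusted p = 0.941) in CKD saline against sham saline and 2.08 ± 0.59 (adjusted p = 0.276) in CKD JV001 against CKD saline. The interaction was 2.04 ± 0.80 (adjusted p = 0.84). Col4a3 and Col4a4 make up another pair, the partners of Col4a5 in kidney basement membranes. Col4a4 read 6.46, 3.76 and 1.76 for sham saline, 4.57, 4.18 and 4.18 for sham JV001, 2.41, 3.46 and 10.5 for CKD saline and 8.96, 12.2 and 8.97 for CKD JV001 CPM. CKD saline 3 fell within the CKD JV001 range, and the log2 fold change was 0.88 ± 0.53 (adjusted p = 0.33). Col4a3 had 1.45 to 4.73 CPM, highest in CKD saline 3.

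Among the other classes, the type VI chains form beaded filaments between cells and fibres, and Col6a1 and Col6a2 are neighbours on chromosome 10. Col6a1 read 55.1, 30.1 and 16.8 CPM for sham saline libraries 1, 2 and 3, 36.4, 49.2 and 26.4 for sham JV001, 17.5, 22 and 84.1 for CKD saline and 77.6, 78.2 and 124 for CKD JV001. Col6a2 read 49.3, 30.8 and 12 for sham saline, 33, 42.2 and 22.5 for sham JV001, 15.2, 17.7 and 71.9 for CKD saline and 70.8, 67.8 and 109 for CKD JV001 CPM. Col6a3 read 28, 15 and 7.07 for sham saline, 21.1, 29.9 and 12.5 for sham JV001, 10.9, 10.2 and 44.3 for CKD saline and 31.7, 34.6 and 80.5 for CKD JV001 CPM. In all of these, CKD saline 3 lay inside the CKD JV001 range, CKD saline 1 and 2 lay low, and CKD JV001 3 was the highest library. The log2 fold changes in CKD JV001 against CKD saline were 1.18 ± 0.58 (adjusted p = 0.286) for Col6a1, 1.24 ± 0.61 (adjusted p = 0.286) for Col6a2 and 1.17 ± 0.66 (adjusted p = 0.309) for Col6a3. In CKD JV001 against sham JV001 no library overlapped for these 3 chains, with log2 fold changes of 1.32, 1.34 and 1.21. Without CKD saline 3 the fold change of Col6a3 in CKD JV001 against CKD saline was 2.21 ± 0.62 (adjusted p = 0.0386), and without library 3 of both groups 1.62 ± 0.52 (adjusted p = 0.0518).

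Col8a1 and Col8a2 build type VIII collagen, a hexagonal network found around vessels. Col8a1 read 9.35, 5.94 and 3.11 CPM for sham saline libraries 1, 2 and 3, 6.8, 7.79 and 7.87 for sham JV001, 5.07, 6.69 and 22.9 for CKD saline and 25, 33.5 and 21.4 for CKD JV001. CKD saline 3 lay inside the CKD JV001 range, and the sham libraries lay below it. The log2 fold change was 0.91 ± 0.52 (adjusted p = 0.941) in CKD saline against sham saline, 1.21 ± 0.52 (adjusted p = 0.276) in CKD JV001 against CKD saline and 1.83 ± 0.53 (adjusted p = 0.101) in CKD JV001 against sham JV001. Without library 3 of both CKD groups the last was 1.96 ± 0.34 (adjusted p = 0.0115). Col8a2 had 0, 6 and 2 reads in sham JV001 and 54, 65 and 41 in CKD JV001. A count of 0 allows up to 3 counts, so no fold is given for Col8a2.

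The fibril-coating chains (FACIT) link fibrils to their surroundings. Col14a1 read 13.1, 5.33 and 3.19 CPM for sham saline libraries 1, 2 and 3, 4.05, 11.4 and 5.54 for sham JV001, 4.03, 4.82 and 13.5 for CKD saline and 19.3, 21.7 and 26.4 for CKD JV001. All CKD JV001 libraries lay above CKD saline, with a log2 fold change of 1.59 ± 0.59 (adjusted p = 0.276), and of 1.68 ± 0.59 (adjusted p = 0.123) against sham JV001. Col12a1 read 1.45, 0.186 and 0.492 for sham saline, 0.742, 1.77 and 0.697 for sham JV001, 0.518, 1.12 and 4.49 for CKD saline and 3.99, 6.18 and 4.84 for CKD JV001 CPM. It had the widest range of the 26 chains with a mean of at least 1 CPM, 33.3-fold, and CKD saline 3 lay inside the CKD JV001 range. The low end of that range is sham saline 2 with 7 reads, so its size is uncertain. For Col12a1 the log2 fold change was 1.53 ± 0.83 (adjusted p = 0.941) in CKD saline against sham saline, 1.30 ± 0.80 (adjusted p = 0.334) in CKD JV001 against CKD saline and 2.22 ± 0.82 (adjusted p = 0.135) against sham JV001. Col16a1, picked after its values were seen, read 5.78, 2.73 and 1.3 for sham saline, 3, 4.46 and 2.54 for sham JV001, 3.26, 2.41 and 10.3 for CKD saline and 12.6, 10.9 and 16 for CKD JV001 CPM. CKD saline 3 came just under the lowest CKD JV001 library, and the log2 fold change was 1.31 ± 0.58 (adjusted p = 0.277), and 1.98 ± 0.60 (adjusted p = 0.106) against sham JV001. Col9a3 had 0 reads in each sham saline library and at most 60 in any library, the highest in CKD JV001 3. No fold is given against a group at 0.

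Col15a1 and Col18a1 are the multiplexins of the basement membrane zone, and fragments released from them are known to restrain vessel growth. Col15a1 read 58.4, 33.3 and 21.8 CPM for sham saline libraries 1, 2 and 3, 42, 46.2 and 33 for sham JV001, 21.7, 20.3 and 78 for CKD saline and 71.8, 76.8 and 174 for CKD JV001. CKD JV001 3 was highest, and CKD saline 3 exceeded CKD JV001 1 and 2. The log2 fold change was 1.43 ± 0.55 (adjusted p = 0.276) in CKD JV001 against CKD saline and 1.41 ± 0.55 (adjusted p = 0.145) against sham JV001. Col18a1 read 13.4, 4.22 and 5.98 for sham saline, 7.51, 7.74 and 6.3 for sham JV001, 3.44, 5.54 and 15.8 for CKD saline and 18.1, 17.9 and 18.4 for CKD JV001 CPM. Its CKD JV001 libraries were close together and above all others, with a log2 fold change of 1.14 ± 0.52 (adjusted p = 0.277). Of the transmembrane chains, Col13a1, picked after its values were seen, read 0.578, 0.451 and 0.337 for sham saline, 0.649, 0.617 and 0.818 for sham JV001, 0.444, 0.297 and 0.278 for CKD saline and 1.11, 1.17 and 1.26 for CKD JV001 CPM. Here CKD saline 3 was the lowest library of all. Its log2 fold change of 1.78 ± 0.44 (adjusted p = 0.276) in CKD JV001 against CKD saline had the smallest unadjusted p of the chains, 0.00188.

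**Figure D3:**
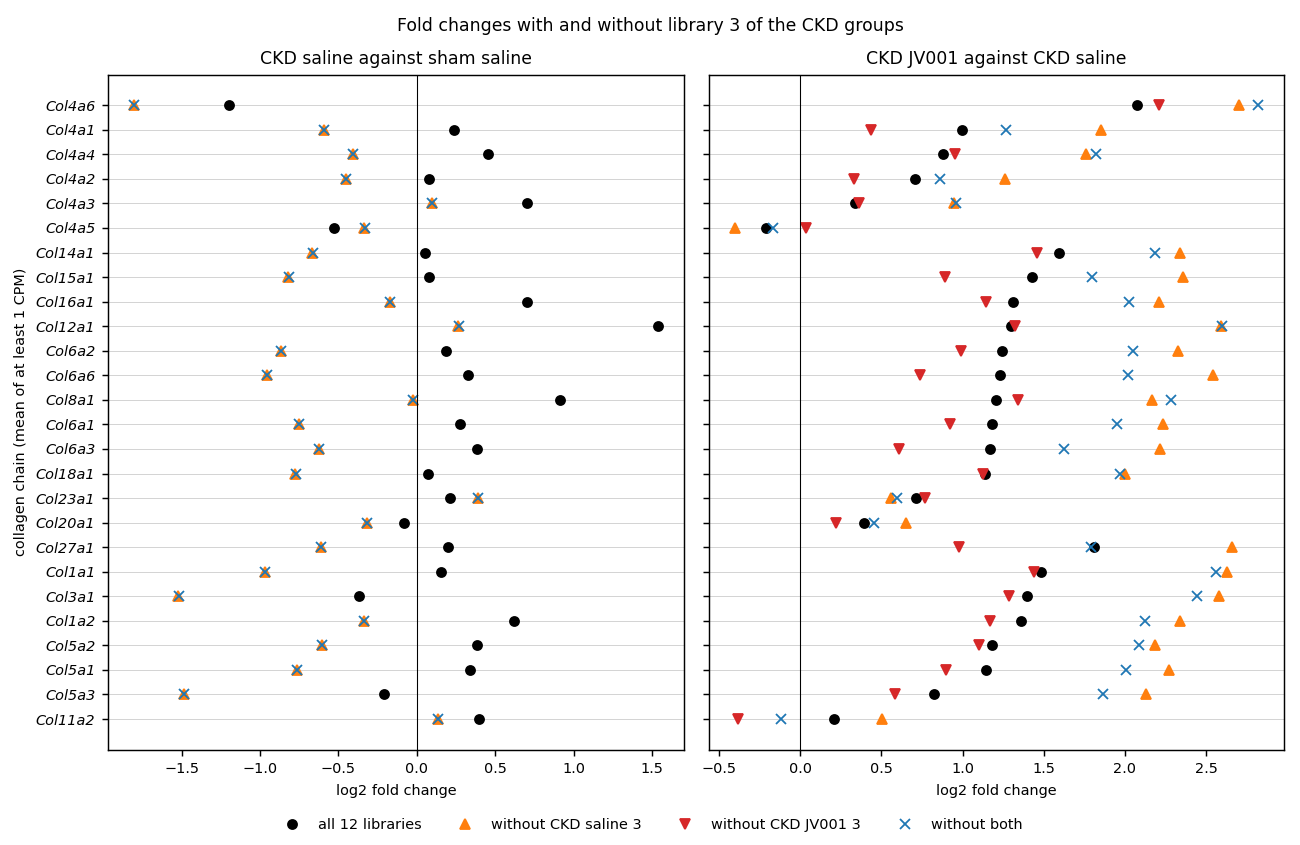
Log2 fold changes (x axis) of the 26 chains with a mean of at least 1 CPM, fitted with all 12 libraries and without library 3 of CKD saline, of CKD JV001 or of both. In CKD saline against sham saline, Col1a1 moves from 0.15 to -0.97 without CKD saline 3, and in CKD JV001 against CKD saline from 1.49 to 2.63.

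Leaving out CKD saline 3 turned the direction of CKD saline against sham saline in 14 of the 17 chains of the main types and highest levels: Col1a2 went from 0.62 to -0.34, Col4a1 from 0.24 to -0.59, Col6a1 from 0.28 to -0.75 and Col15a1 from 0.08 to -0.82 (log2). The share of all genes that turned is not given here, so this count does not set the chains apart from other genes. Col12a1 stayed above 0, at 0.26, and Col3a1 and Col4a5 stayed below 0, at -1.52 and -0.33. In CKD JV001 against CKD saline, leaving out CKD saline 3 gave, among the fibrillar chains, 2.34 for Col1a2, 2.27 for Col5a1, 2.19 for Col5a2 and 2.66 for Col27a1. It gave 1.76 for Col4a4 and 2.70 for Col4a6 among type IV chains. For the other classes it gave 2.23 for Col6a1, 2.33 for Col6a2, 2.16 for Col8a1, 2.59 for Col12a1, 2.34 for Col14a1, 2.36 for Col15a1, 2.21 for Col16a1 and 2.00 for Col18a1. All of these passed without that library, with adjusted p of 0.0326 to 0.0438 in edgeR's test, and none passed in the fit of all 12 libraries. Col13a1, smaller without it, stood at 1.66 (adjusted p = 0.0478). In the same comparison, leaving out CKD JV001 3 brought Col4a1 to 0.44, Col4a2 to 0.33 and Col6a3 to 0.61, while Col1a1 stood at 1.44. Col27a1 and Col15a1 went to 0.98 and 0.89. Classes did not move as one: Col4a4 and Col4a6 stood at 0.95 and 2.21, and Col8a1 and Col14a1 at 1.34 and 1.46. Against sham JV001, the same omission brought Col4a1 to 0.60, Col6a3 to 0.65, Col15a1 to 0.88 and Col4a5 to -0.30.

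Markers of other cell types moved with the collagen chains. The 10 fibroblast markers summed to 999.5, 725 and 273 for sham saline, 803, 1166 and 569 for sham JV001, 601, 629 and 2314 for CKD saline and 2671, 2679 and 3600.1 for CKD JV001 CPM. CKD saline 3 and the CKD JV001 libraries were high together, and these 4 libraries had the same order as for Col1a2. The 10 endothelial markers summed to 1733, 475 and 721 for sham saline, 1635, 1445 and 1387 for sham JV001, 1029, 998 and 3386 for CKD saline and 2613, 2629 and 3255 for CKD JV001 CPM, high in the same 4 libraries. The 10 ventricular cardiomyocyte markers summed to 67217, 93809 and 89064 for sham saline, 76559.8, 73060.5 and 80084 for sham JV001, 83500.4, 83914 and 46675 for CKD saline and 51153, 51614 and 22881 for CKD JV001 CPM, with the lowest values in those libraries. In CKD JV001 against CKD saline, all 10 fibroblast markers lay above 0, with a median log2 fold change of 1.32 against 1.27 for the fibrillar chains. The endothelial median was 0.66 and the ventricular one -0.76, with none of the markers of these 3 lists passing the test. Macrophage markers summed to 39.4 to 1016 CPM and neutrophil markers to 1.92 to 351, both highest in CKD JV001 3. Smooth muscle and pericyte markers stood at 2480.3 to 3108, epicardial and mesothelial markers at 18.2 to 157 and Schwann markers at 7.79 to 25 CPM. By mean log2 CPM, though, the smooth muscle and pericyte markers were at 6.10 in CKD saline 3. They were at 6.05, 5.98 and 6.79 in CKD JV001, and at 5.15 to 5.87 in all other libraries. The part of these cell types in the collagen values was not tested.

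**Figure D4:**
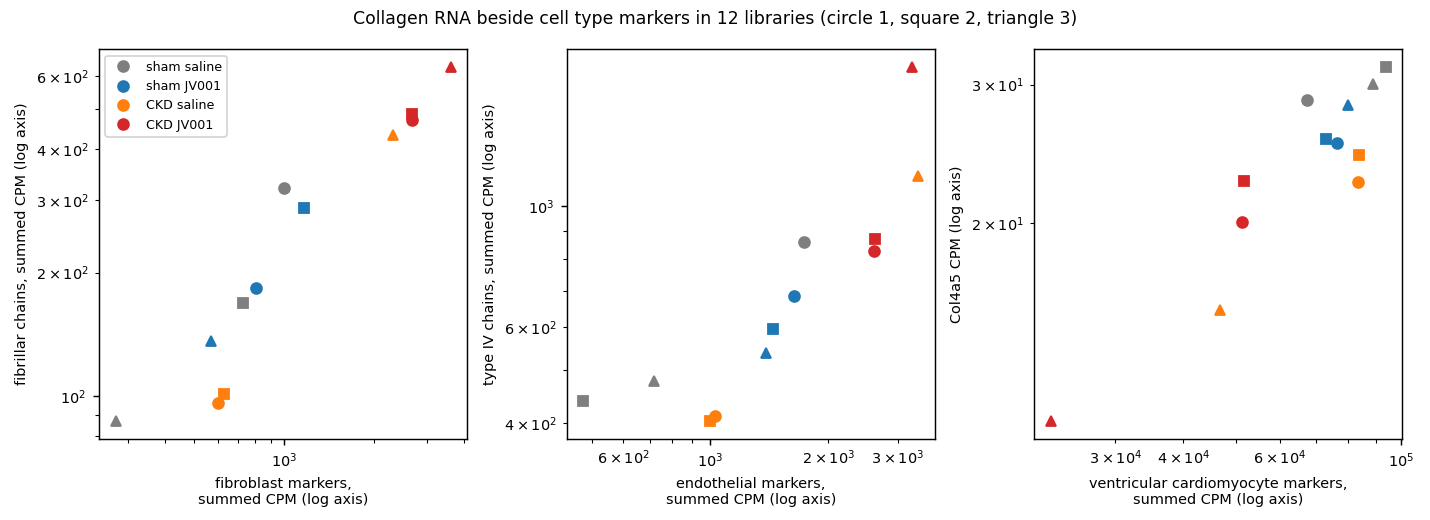
Summed CPM of fibrillar chains against fibroblast markers, of type IV chains against endothelial markers, and CPM of Col4a5 against ventricular cardiomyocyte markers (log axes), with 1 point per library, coloured by group and shaped by library number. In the first panel CKD saline 3 lies next to the CKD JV001 libraries, at 2314 CPM of markers.

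A fit with the level of the fibroblast markers as a covariate brought the chain medians to -0.07 in CKD JV001 against CKD saline, -0.31 in CKD JV001 against sham JV001 and -0.46 in CKD saline against sham saline. In it Col1a1 stood at 0.11 ± 0.26 (adjusted p = 1.000) in CKD JV001 against CKD saline and Col4a6 at 1.09 ± 0.61 (adjusted p = 1.000). Col13a1 kept its size, at 1.80 ± 0.72 (adjusted p = 1.000). Col3a1 stood at -1.35 ± 0.21 (adjusted p = 0.144) in CKD saline against sham saline. The covariate differs between the groups, so this fit takes away what the chains and the markers share, whatever its origin.

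Ratios within a library do not depend on its scaling. An exact permutation test of 3 libraries against 3 cannot give a p below 0.1, so the values are given as a description, with no test. Ratios of chains were compared 24 times, and random order alone leaves 3 libraries apart from 3 at a rate of 0.1 each. A lack of overlap below is therefore no evidence of a change by itself. On the FPKM scale, Col3a1 to Col1a1 was 2.57, 2.15 and 2.21 for sham saline, 1.75, 2 and 2.27 for sham JV001, 1.67, 1.59 and 1.69 for CKD saline and 1.52, 1.49 and 1.71 for CKD JV001. All CKD saline libraries, library 3 included, lay below all sham saline libraries, and CKD JV001 lay below sham JV001. Col1a1 to Col1a2, which form type I collagen in a fixed proportion in the protein, was 0.684, 0.617 and 0.698 for sham saline, 0.621, 0.635 and 0.444 for sham JV001, 0.425, 0.434 and 0.508 for CKD saline and 0.569, 0.596 and 0.447 for CKD JV001. It was lower in CKD saline than in sham saline without overlap, and overlapped in the other comparisons. Col4a1 to Col4a2 was 1.23, 0.841 and 0.874 for sham saline, 1.15, 1.11 and 0.958 for sham JV001, 0.948, 0.906 and 1.32 for CKD saline and 1.23, 1.23 and 1.57 for CKD JV001. It was higher in CKD JV001 than in sham JV001 without overlap, and the highest value was in CKD JV001 3. Col6a1 to Col6a2 ran from 1.48 to 2.11, Col6a3 to Col6a2 from 0.248 to 0.407 and Col5a1 to Col5a2 from 0.878 to 1.49. These ratios overlapped in every comparison.

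Fibrillar to type IV FPKM was 0.421, 0.428 and 0.205 for sham saline, 0.298, 0.543 and 0.284 for sham JV001, 0.261, 0.284 and 0.428 for CKD saline and 0.645, 0.633 and 0.395 for CKD JV001. The groups overlapped, and CKD JV001 3 was unlike CKD JV001 1 and 2. Per 100 CPM of fibroblast markers, Col3a1 stood at 13.1, 7.95 and 11.9 for sham saline, 6.83, 8.42 and 7.56 for sham JV001, 4.08, 4.07 and 5.23 for CKD saline and 5.1, 5.29 and 4.8 for CKD JV001. Every CKD library was below every sham library. Col1a2 per 100 fibroblast marker CPM ran from 5.38 to 7.22, a 1.34-fold range, whereas Col1a2 itself ranged 10.8-fold. Other chains ranged more widely on this scale: Col1a1, its partner, 2.20-fold, Col8a1 2.32-fold and Col3a1 3.20-fold. Col1a1 on this scale was lower in CKD saline than in sham saline without overlap. Summed fibrillar CPM to fibroblast marker CPM was 0.321, 0.232 and 0.32 for sham saline, 0.228, 0.247 and 0.239 for sham JV001, 0.16, 0.162 and 0.186 for CKD saline and 0.176, 0.181 and 0.176 for CKD JV001. It was lower in both CKD groups than in their sham controls, and Dcn and Gsn made up most of the marker sum. Without these 2 genes, a choice made after seeing the data, it was 1.99, 1.42 and 1.36 for sham saline, 1.32, 1.51 and 1.22 for sham JV001, 0.993, 0.974 and 1.17 for CKD saline and 1.24, 1.25 and 1 for CKD JV001, still lower in CKD saline than in sham saline but overlapping under JV001. Set against Pdgfra alone, the fibroblast receptor gene, it overlapped in all 4 comparisons of groups, with 7.32 to 10.3 in CKD saline and 8.29 to 15 in sham saline. Summed type IV to endothelial marker CPM was 0.497, 0.924 and 0.662 in sham saline. Both sham JV001 (0.419, 0.411 and 0.387) and CKD saline (0.401, 0.404 and 0.335) lay below these values. Fibrillar to endothelial markers was higher in CKD JV001 than in CKD saline without overlap. Type IV to fibroblast markers was lower in CKD JV001 than in sham JV001 without overlap. The other comparisons of these ratios overlapped.

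Col4a5 was set against the ventricular markers because both were lowest in CKD JV001 3. Per 1000 CPM of those markers it stood at 0.426, 0.337 and 0.337 for sham saline, 0.33, 0.35 and 0.352 for sham JV001, 0.27, 0.291 and 0.332 for CKD saline and 0.392, 0.439 and 0.49 for CKD JV001. Its range was 1.81-fold on this scale, against 24.2-fold for Col4a1. On it CKD JV001 lay above CKD saline and above sham JV001 without overlap, the reverse of its CPM against sham JV001, and CKD saline lay below sham saline without overlap, as its CPM did.

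**Figure D5:**
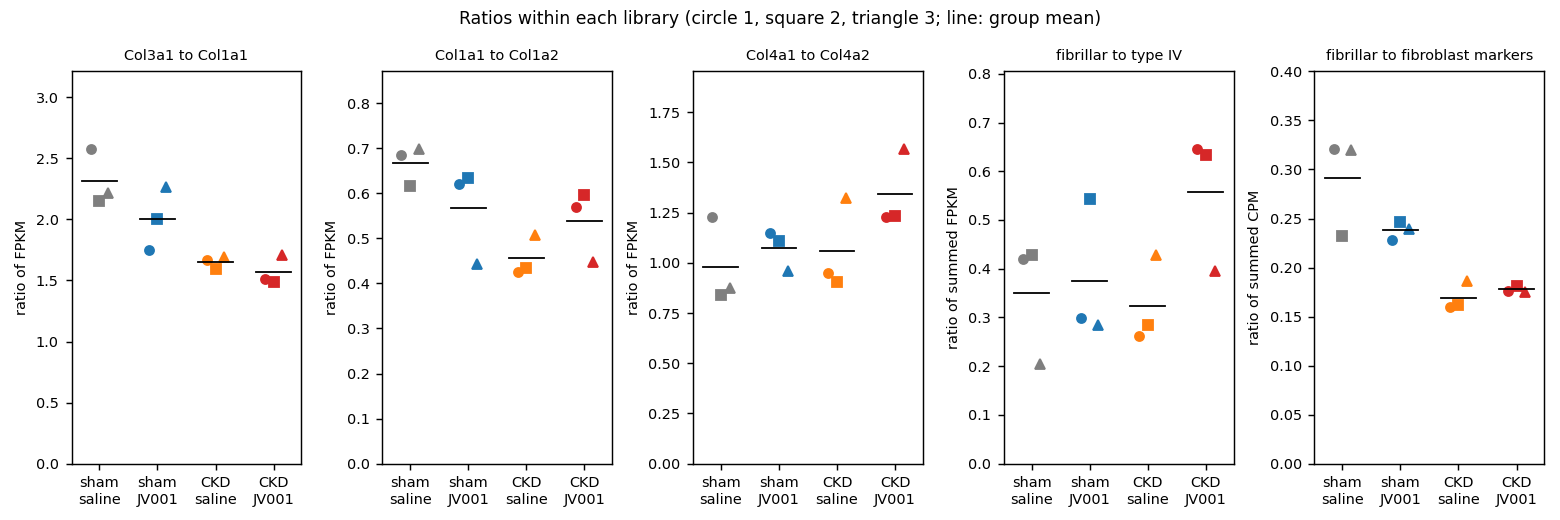
Ratios of collagen chains within each of the 12 libraries (y axes, from 0, without unit) by group (x axes), with 1 point per library and a line at the group mean. In Col3a1 to Col1a1 the CKD saline libraries sit between 1.59 and 1.69, below all sham saline libraries.

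Genes that make, join and bind collagen were read from 5 lists in the same fit, and in CKD JV001 against CKD saline 0 genes of any list passed the adjusted threshold (background 0%). Synthesis and modification had 21 tested genes, median 0.41, 8 higher and 0 lower at an unadjusted p under 0.05, where 9.29% of all genes were higher and 8.75% lower. In this list P4ha1, a prolyl hydroxylase that stabilises the helix, was at 1.81 ± 0.66, Serpinh1, the collagen chaperone of the endoplasmic reticulum, at 1.32 ± 0.51 and P3h3 at 1.35 ± 0.53. For P4ha1 and Serpinh1, CKD JV001 3 stood apart: P4ha1 reached 405 CPM there, against 66.3 and 59 in CKD JV001 1 and 2, and without that library P4ha1 stood at 0.31 and Serpinh1 at 0.38. Crosslinking and propeptide removal had 13 tested genes, median 1.17, 6 higher and 0 lower at an unadjusted p under 0.05, against the same shares of all genes. The smallest p belonged to the lysyl oxidases Loxl3 at 1.59 ± 0.50 and Loxl4 at 2.07 ± 0.74, and Adamts2, which removes the amino-terminal propeptide, at 1.33 ± 0.49. Without CKD JV001 3, Loxl4 stood at 1.20.

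Receptors and turnover had 15 tested genes, median 1.27, 2 higher and 0 lower at an unadjusted p under 0.05, close to the 9.29% of all genes that were higher. Its smallest p belonged to the gelatinase Mmp2 at 1.46 ± 0.50, the collagen integrin chain Itga11 at 1.62 ± 0.73 and the receptor kinase Ddr2 at 1.27 ± 0.60, which stood at 0.63 without CKD JV001 3. The fibril-associated proteins had 14 tested genes, median 1.25, 10 higher and 0 lower at an unadjusted p under 0.05, against 9.29 and 8.75% of all genes. Of these Ogn stood at 0.37 ± 0.14, Comp at 1.98 ± 0.75 and Dcn, the small proteoglycan decorin and also a fibroblast marker above, at 1.36 ± 0.53. Basement membrane partners had 14 tested genes, median 0.85, 4 higher and 1 lower at an unadjusted p under 0.05, against the same shares. The laminin chain Lamc1 stood at 0.88 ± 0.35 and the proteoglycan Agrn at 0.80 ± 0.30, whereas the laminin chain Lamb3 stood at -0.99 ± 0.23. For Lamb3 all CKD JV001 libraries lay under all CKD saline libraries, as they did for 6.04% of all genes. Without CKD JV001 3, Agrn stood at 0.32. Adjusted p-values of these named genes ran from 0.276 to 0.281 in edgeR's test. Without CKD saline 3 the values were higher for most, among them Comp at 3.12, Itga11 at 2.80, Mmp2 at 2.26 and Dcn at 2.22. With the replicate number as a block in the 2 CKD groups, 6, 6, 7, 9 and 8 genes of the lists passed in the higher direction and Lamb3 in the lower, against 19.9% of all genes in either.

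In CKD saline against sham saline the 5 lists had medians of 0.02, 0.35, 0.26, 0.68 and 0.21 in the order above, and 0 genes passed in edgeR's test. Pcolce2, an enhancer of propeptide removal, stood at 0.55 ± 0.23 with CKD saline above sham saline in all libraries. The laminin chains Lamb2 and Lamb3 stood at -0.31 ± 0.13 and -0.52 ± 0.23, each lower without overlap. Of all genes, 4.12% lay higher and 6.43% lower without overlap in this comparison. Pcolce2, Lamb2 and Lamb3 were named for their small p, so their lack of overlap is not separate evidence of a change. Colgalt2, a collagen glycosyltransferase, was at 1.01 ± 0.53, P3h2 at 0.73 ± 0.43, Loxl3 at 0.82 ± 0.50, Pepd at 0.24 ± 0.15 and the small proteoglycan Podn at -1.16 ± 0.52, all with overlapping libraries. Without CKD saline 3, Colgalt2 stood at 0.13, P3h2 at 0.30 and Loxl3 at 0.14, and without sham saline 1 Podn stood at -0.59. Mmp8, a neutrophil collagenase, and Omd were at or near 0 in sham saline, so no fold is given for them. Adjusted p-values of these genes were all 0.941.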

How the data were processed

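RNA of isolated cardiomyocytes was sequenced in 12 libraries, in 4 groups of 3 taken from the labels. The deposited counts are raw whole numbers of reads for each gene symbol, which the authors made with fastp, HISAT2 and HTSeq on build GRCm39 per the submitters' processing notes. Which versions, annotation and strand setting were used is not given in the sources used here, so reads of overlapping or antisense genes cannot be told apart. The authors derived their deposited FPKM from these counts: all 10249 genes that had 50 or more reads per library gave 1 whole-number length within 0.01. Columns were matched to labels by group initials and number, with C read as CKD saline.

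From the counts, edgeR 4.0.16 (R 4.3.3) fitted 4 group means in 1 model over all 12 libraries, with filterByExpr by group (minimum count 10), TMM factors, the quasi-likelihood F test and Benjamini-Hochberg adjustment over 15004 genes, at a threshold of 0.05. CPM carry TMM factors and compare libraries; FPKM compare chains. Errors are SD over libraries or SE of the fit. The fit was tested on simulated counts that had the same spread in every library and no library standing apart. That test therefore does not cover libraries such as CKD saline 3. A count of 0 allows 3 counts, for counting error only.

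Chain classes, marker lists, partner lists and the 17 chains given in every library (the 4 with the highest mean FPKM per class, and the main types I, III, IV, V, VI, VIII, XII, XIV, XV and XVIII) were chosen with earlier results of these data known. Of each partner list, the 3 genes with the smallest p in CKD JV001 against CKD saline and the 2 in CKD saline against sham saline are named. Alternatives were RLE size factors, no filter, a stricter filter, DESeq2 1.42.0, limma 3.58.1 on log2(FPKM + 1) and log2(FPKM + 0.1) with a mean FPKM of at least 0.5, only the groups compared, a replicate block, a fibroblast marker covariate, removal of mitochondrial and haemoglobin genes, other treatments of CKD libraries, and each library left out. Counts of chains without overlap were repeated over other gene sets and without library 3 of the CKD groups, and 1 ratio without Dcn and Gsn, after seeing the data. Deviations of same-numbered libraries from their group means correlated over 0.1 in all 3 pairs (0.29 to 0.49) only between CKD saline and CKD JV001. Library 3 stood apart in both of these groups, which ties the 3 correlations together, so they do not establish a pairing by number. The labels state no such pairing, and a fit of these 2 groups with the number as a block was added after seeing the data.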

Additional observations from a re-analysis of the deposited data

How the results depend on the processing

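In CKD saline against sham saline no setting called a chain. Without library 3 of both CKD groups the log2 fold changes turned to -0.97 for Col1a1, -0.34 for Col1a2, -0.59 for Col4a1, -0.75 for Col6a1, -0.024 for Col8a1 and -0.82 for Col15a1. With the fibroblast marker covariate they were -0.82 for Col1a1, -0.22 for Col1a2, -0.54 for Col4a1, -0.64 for Col6a1 and -0.76 for Col15a1. limma on log2(FPKM + 1) gave -0.10 for Col1a1 and -0.14 for Col15a1, and on log2(FPKM + 0.1) -0.16 for Col1a1, -0.012 for Col6a1 and -0.18 for Col15a1. With libraries 1 and 2 summed in each CKD group, Col3a1 stood at 0.0068. Leaving out 1 library at a time gave ranges of -0.97 to 0.72 for Col1a1, -0.34 to 1.14 for Col1a2, -1.52 to 0.35 for Col3a1, -0.59 to 0.77 for Col4a1, -0.75 to 0.82 for Col6a1, -0.027 to 1.36 for Col8a1 and -0.82 to 0.54 for Col15a1, the lows without CKD saline 3 and the highs without sham saline 1. DESeq2 called 54 genes.

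In CKD JV001 against CKD saline, leaving out 1 library gave 0 to 3287 genes, 0 to 22 chains and a chain median of 0.84 to 2.18, the highs without CKD saline 3. Without library 3 of both CKD groups 3043 genes and 17 chains passed. DESeq2 called 67 genes and 1 chain. The marker covariate gave 3 genes and a chain median of -0.071, and turned Col1a2 to -0.016, Col3a1 to -0.055, Col5a1 to -0.28, Col5a2 to -0.13, Col4a1 to -0.27, Col4a2 to -0.16, Col4a4 to -0.17, Col4a5 to 0.28, Col6a1 to -0.24, Col6a2 to -0.27, Col6a3 to -0.60, Col16a1 to -0.086, Ddr2 to -0.24 and Lamc1 to -0.029. Col4a5 ran from -0.42 to 0.035 over single libraries left out, above 0 without CKD JV001 3.

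In CKD JV001 against sham JV001, the 3 genes called became 7 with RLE factors, 5 with no filter, 12 with the stricter filter, 792 with only the groups compared, 1433 without library 3 of both CKD groups, 0 with libraries 1 and 2 summed, 0 with the covariate, 7 without mitochondrial and haemoglobin genes, 74 and 10 in limma with pseudocounts of 1 and 0.1, and 1984 in DESeq2. Leaving out 1 library gave 0 to 2 genes and a chain median of 0.93 (without CKD JV001 3) to 1.54 (without sham JV001 2). Chains called were 9 with only the groups compared, 4 without library 3 of both CKD groups, where the median was 0.92, and 6 in DESeq2. The covariate gave a median of -0.31 and turned Col1a1 to -0.31, Col1a2 to -0.12, Col5a2 to -0.30, Col4a1 to -0.50, Col6a1 to -0.56, Col6a2 to -0.66, Col6a3 to -0.99 and Col15a1 to -0.43.

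In sham JV001 against sham saline DESeq2 called 3 genes, and the chain median ran from -0.12 (without sham saline 3) to 0.65 (without sham saline 1). For the interaction DESeq2 called 2 genes, and the chain median was 1.70 without library 3 of both CKD groups, 0.088 with the covariate and 0.51 (without sham saline 1) to 1.91 (without CKD saline 3) over single libraries left out.

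Of 18 same-numbered pairs of libraries, 6 had deviations correlated over 0.1, the range was -0.39 to 0.49, and 3 of 12 libraries correlated best with their own number. All 3 pairs were over 0.1 between the CKD groups alone, where a replicate block in a fit of those groups called 2850 genes and 14 chains. With the replicate block over all 12 libraries no chain passed, 0 genes passed in CKD JV001 against sham JV001, and Col15a1 in CKD saline against sham saline stood at -0.15. Of the values of single genes under alternatives other than leaving out 1 library, 779 kept direction and call, 69 kept direction and became called, and 40 turned. Where the setting itself does not show it, the cause was not tested. A lone pair of libraries in a group was assumed to vary like the other groups, and 3 libraries a group limit what these tests can call.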
